A study of Saccharomyces cerevisiae with 26 samples.

Results

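The 5 arrays described here are 2 of the reference yeast strain CEN.PK113-7D taken 60 min after a glucose pulse and 3 of the same strain at steady state just before it. They were chosen by their labels alone, out of 26 arrays in the series and 13 of the reference strain. Saccharomyces cerevisiae was grown in glucose-limited, aerobic chemostats, and RNA was read on Affymetrix yeast arrays, which give a signal for each probe set, a group of short probes to a transcript. The series asks how yeast transcripts follow a sudden move from scarce glucose with oxygen to abundant glucose without it, in this strain and in one lacking the transcription factor Sfp1. The deletion strain is not described here.

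All 5 samples come from strain CEN.PK113-7D, given in the labels as MATa MAL2-8c SUC2, held at 30 °C and pH 5.0 with stirring at 800 rpm, and diluted at 0.10 per h. The steady state group holds 3 independent cultures and each pulse time 2, and whether 1 culture was drawn at several times is not given in the labels. Before the pulse, the vessel was flushed with nitrogen for 2 min and the pumps were stopped, and glucose was then added to 200 mM. The 60 min samples therefore differ from steady state in glucose, in oxygen, in the feed and in time since it stopped, and the parts of these cannot be told apart. The reference arrays at 30 min and at 120 min, 2 of each, served as the nearest times before and after.

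Yeast that meets abundant glucose shuts off genes for respiration, for the use of other carbon sources and for storage and stress protection, and turns on low-affinity glucose carriers, fermentation and ribosome production. Loss of oxygen stops respiration and also the synthesis of heme, sterols and unsaturated fatty acids, which need molecular oxygen. Heme carries the oxygen signal to the Hap1 and Rox1 regulators, and sterol level acts through Upc2, so that hypoxic isoforms and, later, anaerobic cell wall and sterol uptake genes appear.

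The arrays had been scaled to nearly the same trimmed mean, so every signal is relative to the other transcripts on its array. The median signal over probe sets was 43.9 to 46.1 at steady state and 27.1 and 29 at 60 min. Over genes, which do not count as replicates, the correlation of replicate reference arrays was 0.9744 to 0.9922, and that of the 60 min arrays 0.9913. The ratio of the 5' to the 3' actin probe set, a sign of RNA integrity, was 0.778 to 0.923 at steady state and 0.731 and 0.697 at 60 min. Its part in the changes was not tested. The 5 min arrays, with ratios of 0.832 and 0.725, reach into the range of the 60 min arrays. SFP1 itself read 100.6, 99.3 and 115.8 at steady state and 113 and 124.1 at 60 min, a log2 difference of 0.17 with an adjusted p of 0.252. The actin gene ACT1 gave a log2 difference of -0.09 with an adjusted p of 0.498.

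At 60 min most genes read differently from steady state, and falls outnumbered rises. Of 5256 genes tested, 3619 differed from steady state at a limma adjusted p under 0.05, which is 68.9% of them. The higher genes numbered 1220 (23.2%) and the lower genes 2399 (45.6%). The falls were also the larger changes: 610 genes were called at least 2-fold higher and 1510 at least 2-fold lower, and 19 and 328 respectively passed 8-fold. The median log2 change over all genes was -0.29. This split depends on the scaling. With a common median for all arrays, 2412 genes were higher and 1416 lower with an all-gene median of 0.30, and with quantile normalization 2019 were higher and 1640 lower with a median of 0.13. Changes well beyond that shift, such as most of those named below, kept their direction, and a change of sign in a list's median is given where the list is described.

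**Figure D1:**
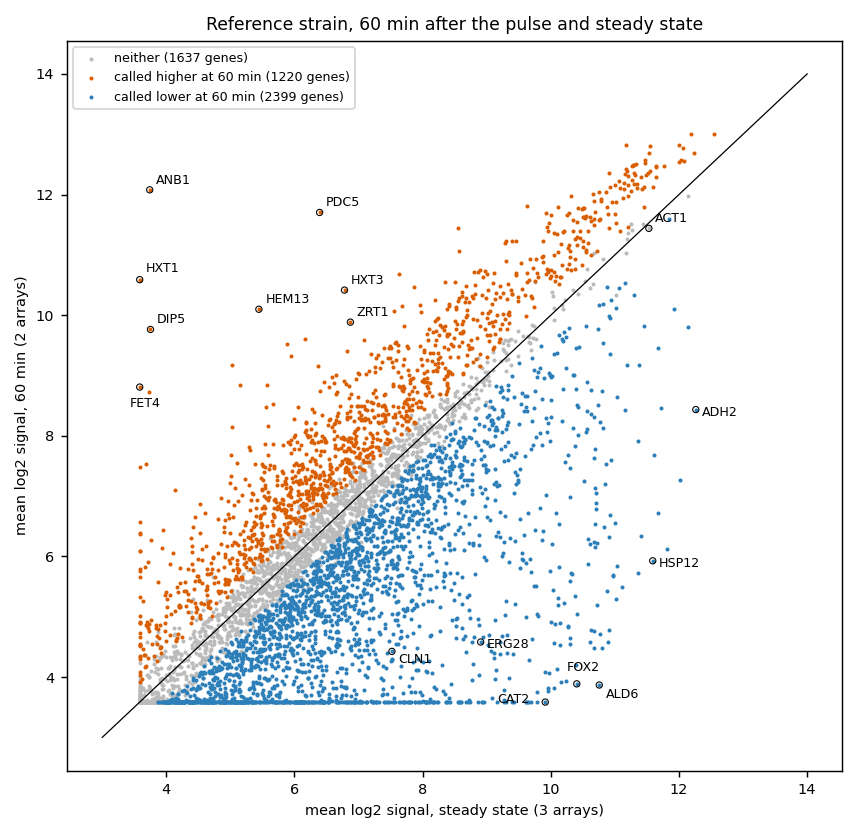
Mean log2 signal of each of 5256 genes at steady state (x axis, 3 arrays) and at 60 min (y axis, 2 arrays), reference strain, with signals under 12 set to 12. Orange points were called higher and blue points lower at a limma adjusted p under 0.05, grey points neither; the diagonal marks equal signal, and the genes with the largest changes, such as ANB1 and ALD6, are named.

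The largest rise belonged to ANB1, which encodes the hypoxic form of translation factor eIF5A. It was at the floor of 12 on 2 steady state arrays and read 16.6 on the third, against 4674.6 and 3999 at 60 min, so it was at least 323-fold higher (log2 8.34, SE 0.16, adjusted p 1.21e-12). HXT1, the low-affinity glucose carrier of high glucose, was at the floor on all 3 steady state arrays and read 1467.6 and 1616.6 at 60 min, at least 128-fold higher. Both genes were near the floor at 5 min too, and their high readings begin between that time and 30 min.

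DIP5, the permease for glutamate and aspartate, read 12.8, 12.2 and 15.7 at steady state and 808.2 and 934.1 at 60 min (64.4-fold, adjusted p 2.15e-11). PDC5, a pyruvate decarboxylase that accompanies the main enzyme PDC1, went from 83.7, 93.9 and 75.4 to 3637.4 and 3055.7, a 39.7-fold rise. FET4, the low-affinity iron carrier, was at the floor on all steady state arrays and read 438.6 and 458, at least 37.3-fold higher. The set of 12 largest rises was completed by INA1 (32.1-fold), HEM13 of heme synthesis (25.2-fold), the hexose carriers HXT4 (17.8-fold) and HXT3 (12.4-fold), the transport protein gene YHK8 (at least 14.9-fold), the glutathione and peptide carrier OPT1 (at least 14.5-fold) and the riboflavin carrier MCH5 (12.8-fold). Most of these genes encode carriers in the cell membrane.

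The largest fall was that of ALD6, the cytosolic aldehyde dehydrogenase that makes acetate. It read 1693.7, 1747.1 and 1748 at steady state and 14.4 and 14.8 at 60 min, a 118-fold fall (log2 -6.89, SE 0.20, adjusted p 8.73e-12). Its other probe set was at the floor in both groups and adds nothing. FOX2, an enzyme of fatty acid oxidation in the peroxisome, fell from 1259.6, 1487.9 and 1330.4 to 13.6 and 16.1 (91.6-fold). CAT2, which moves acetyl units as carnitine esters, read 860.5, 1162.7 and 895.8 at steady state and was at the floor on both 60 min arrays, at least 80.3-fold lower.

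The other 9 of the 12 largest falls lay between 72.2-fold and 79.8-fold, or at least that where an array was at the floor. They were SPG4 of stationary phase, the respiratory mitochondrial pyruvate carrier MPC3, TMA10, the hexose carrier HXT5, formate dehydrogenase FDH1, the respiratory complex III subunit QCR10, the proteinase B inhibitor PBI2, the lipid droplet protein PLN1 and STF2. FDH1 was read by a probe set that can also bind a related gene. At 5 min these genes still read near their steady state signals, ALD6 at 1676.2 and 1453.6 and FOX2 at 1369.6 and 1440.9.

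Among oxygen-dependent genes, several targets of the heme-dependent regulators had exchanged by 60 min. HYP2, the aerobic partner of ANB1, read 3776.6, 4280.8 and 3637.4 at steady state and 1132.8 and 1069 at 60 min (3.53-fold lower). HEM13, whose enzyme uses oxygen and whose gene Rox1 represses, rose from 47.5, 40.7 and 42.7 to 1115 and 1077. ROX1 itself read 42.3, 23.7 and 49.1 at steady state and was at the floor on both 60 min arrays, at least 3.05-fold lower (adjusted p 0.000263). The hypoxic ATP carrier AAC3 was at the floor at steady state and read 76.6 and 91.3 at 60 min, at least 6.97-fold higher.

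Among the cytochrome genes, aerobic forms fell and no hypoxic partner rose. CYC1, the aerobic cytochrome c, fell 65.4-fold, from 1427.2, 1775.5 and 1526.6 to 20 and 28.8, while the second form CYC7 read 29.5, 15 and 23.2 before and was at the floor afterwards (log2 -0.86, and adjusted p 0.0503 with quantile normalization). COX5A, the aerobic subunit of cytochrome oxidase, fell 30.4-fold to 33.1 and 40.1. Its hypoxic partner COX5B was at the floor on all 5 arrays, so no difference could be measured. YHB1, the flavohemoglobin that removes nitric oxide, fell 22-fold. In all, 6 of 18 genes of the hypoxic isoform and regulator list were higher and 7 lower, with a median log2 change of 0.09, against a background of 23.2% higher and 45.6% lower. The counts were 10 higher and 3 lower with a common median, and 9 and 4 with quantile normalization.

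Of the anaerobic cell wall protein genes, some TIR genes were higher at 60 min, while TIR1 did not pass the test and DAN1 had not moved measurably. DAN1, an anaerobic mannoprotein, was at the floor on every steady state array and read 13.8 and the floor at 60 min. TIR1 read 105.8, 148.9 and 101 at steady state and 142 and 165.1 at 60 min, a log2 difference of 0.39 with an adjusted p of 0.0624, with overlapping arrays. Of 7 mannoprotein genes tested, TIR3 (71.2, 56.8 and 82.8 against 162.6 and 209.2), TIR2 and TIR4 were higher, with log2 changes of 1.41, 1.26 and 0.68, and PAU23 and DAN4 were lower. The call of TIR4 rested on single arrays, with adjusted p-values of 0.294 without 60 min replicate 2, 0.094 without steady state replicate 1 and 0.0624 without steady state replicate 3. PAU23 at -0.999 and DAN4 at -0.62 did not pass with a common median or with quantile normalization, and DAN4 not without 60 min replicate 1 (adjusted p 0.13) or steady state replicate 3 (0.069). Of 6 aerobic wall protein genes 4 were lower and 1 higher, and with a common median 3 and 3. CWP1 fell from 486, 643.6 and 557.9 to 31.4 and 30.5, and SED1 from 2279.6, 3080.4 and 2596.1 to 201.1 and 286.4, while CCW12 read 5084.7, 7586 and 5626 and then 8844.1 and 7686.1. Its log2 change of 0.46 did not pass without 60 min replicate 1 (adjusted p 0.111) and was -0.05 with quantile normalization.

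Of 6 sterol uptake and storage genes 2 were higher, AUS1 and ARE1, and 4 did not pass, against 23.2% of all genes higher and 45.6% lower. AUS1, a sterol importer, read 48.5, 48.2 and 46.4 at steady state and 87 and 94.2 at 60 min, a log2 rise of 0.92 with an adjusted p of 0.000163. UPC2, the regulator that senses sterol, was at the floor at steady state and read 18.6 and 28, close to the floor still. ARE1, which makes sterol esters, rose by 2.09 on the log2 scale from 71.4, 73.7 and 92.5 to 298.1 and 377.9. The seripauperin genes, a large family of anaerobic wall proteins, were read by shared probe sets. Of the 10 tested, 3 were higher (PAU10, PAU4 and PAU13) and 4 lower, against the same 23.2% and 45.6%. The call of PAU13 was lost without either 60 min array (adjusted p 0.121 and 0.0603) or without steady state replicate 3 (0.0973). The median of the 10 genes, -0.36, became positive with a common median, with quantile normalization and with a floor of 48.

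Ergosterol synthesis, the oxygen-consuming pathway to the main sterol of yeast, was mostly low: 20 of 24 genes were lower than at steady state and 1 higher, with a median log2 change of -1.21, and with a common median 13 were lower and 3 higher. ERG28, a scaffold of the sterol demethylation enzymes, read 438.6, 570.4 and 440.8 at steady state and 24.9 and 23 at 60 min, a log2 fall of 4.32. HMG1, the main form of the enzyme that sets the rate of the pathway, fell by 3.65 from 1623.7, 2096.2 and 1833.8 to 142 and 152.3. Its second form HMG2 differed by 0.19 and did not pass the test. The gene that rose was NCP1, the reductase that hands electrons to the sterol enzymes, by 0.66 on the log2 scale.

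Heme synthesis genes did not move together. HEM13 rose, HEM15, HEM2 and HEM4 fell, and the heme oxygenase gene HMX1 went from 189.9, 286.3 and 237.1 to the floor on both arrays. HEM1, the entry step of the pathway, read 525.5, 482.4 and 560.5 and then 517 and 548.1, a log2 difference of 0.03. In the list 1 of 9 genes was higher and 4 were lower, against 23.2% and 45.6% of all genes. With a common median 5 were higher and 4 lower, and with quantile normalization 4 and 4. The list's median of -0.14 turned positive under both.

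Hexose carrier genes moved in both directions, with 3 of 10 higher (HXT1, HXT3 and HXT4) and 5 lower, against 23.2% and 45.6% of all genes. With a common median 5 were higher and 5 lower. HXT6 and HXT7, near-identical high-affinity carriers read by shared probe sets, fell by 4.76 and 3.92 on the log2 scale. HXT2 fell by 2.22, and HXT5, a carrier of starved cells, by 6.24 from 938, 1251.1 and 1026.4 to 13 and 15.2. HXT3 rose from 113.3, 107.4 and 109.2 to 1292.1 and 1444, and HXT4 from 34.9, 31 and 31.5 to 540.7 and 615.2. The glucose sensor genes parted: SNF3, the sensor of low glucose, fell by 1.72, and RGT2, the sensor of high glucose, differed by 0.14 without passing the test.

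Of the genes that phosphorylate glucose, HXK1 and GLK1 fell far and HXK2 moved little. HXK1 read 1449.1, 1823.2 and 1485.1 at steady state and 25.2 and 30 at 60 min (57.4-fold lower), and GLK1 fell by 4.29 on the log2 scale to 77.3 and 79.5. HXK2 went from 1156.3, 1214.5 and 1033.9 to 1803.8 and 1395.1 (1.4-fold, adjusted p 0.00547), a rise that did not pass without 60 min replicate 1 (adjusted p 0.107) or with quantile normalization (0.286). Of the 16 glycolysis genes 13 were higher, 7 with quantile normalization, and the 3 lower ones were HXK1, GLK1 and the minor pyruvate kinase PYK2. The phosphofructokinase subunits PFK2 and PFK1 led with log2 rises of 1.55 and 1.35, and the main pyruvate kinase CDC19 rose by 1.22.

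Of 15 genes of alcoholic fermentation and acetaldehyde use 6 were higher and 8 lower, against 23.2% and 45.6% of all genes. The main enzymes of ethanol formation were among the higher genes and ALD6 among the lower. PDC1 rose from 2285, 2987.5 and 2489.7 to 6679.2 and 5018.7 (2.25-fold), and ADH1, which makes ethanol, from 2632.1, 3402.5 and 2858 to 7286.6 and 5994.7 (2.24-fold). ADH2, which consumes ethanol, fell from 4266.5, 6116.2 and 4547.7 to 302.6 and 395.6 (14.2-fold). Besides ALD6, the mitochondrial aldehyde dehydrogenase ALD4 fell by 4.95 and the acetyl-CoA synthetase ACS1 by 5.64 on the log2 scale. ALD5, a further mitochondrial aldehyde dehydrogenase, differed by -0.01.

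Glycerol genes exchanged their isoforms. GPP1, the last step of glycerol synthesis, rose from 382.3, 367.1 and 372.1 to 3033.5 and 2576.3, a log2 rise of 2.90, and GPD2, the dehydrogenase of anaerobic redox balance, rose by 2.42 with its arrays at 256.6 and 490.2. GPD1, the form known for osmotic stress, fell 24.7-fold from 547.4, 568.5 and 664.4 to 27.3 and 21. The glycerol-consuming genes GUT1 and GUT2 fell by 3.43 and 4.60, and the glycerol importer STL1 was at the floor on both 60 min arrays.

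Gluconeogenesis and the glyoxylate cycle, which build sugar from ethanol and acetate, were low, with FBP1, MLS1, SFC1 and ICL2 at the floor on both 60 min arrays. FBP1, the key phosphatase of gluconeogenesis, had read 746.3, 886.8 and 778.5 at steady state (at least 66.8-fold lower). PCK1, which makes phosphoenolpyruvate, was at the floor on 1 array and at 13.1 on the other. Of 16 genes, 13 were lower, with a list median of -5.43 on the log2 scale. The 2 higher ones were MAE1, the malic enzyme, which rose from 139, 266.6 and 211.4 to 1593.7 and 1711.7 (8.32-fold), and CIT2, the peroxisomal citrate synthase, by 0.62. The rise of CIT2 did not pass without 60 min replicate 1 (adjusted p 0.0558) or replicate 2 (0.108).

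Nuclear genes of respiration were low. All 34 genes of the respiratory chain and ATP synthase list, which leaves out COX5B and the genes of mitochondrial DNA, and all 16 genes of the tricarboxylic acid cycle list were called lower, against a background of 45.6% of all genes, with medians of -4.03 and -3.84 on the log2 scale, and they were lower with a common median and with quantile normalization too. QCR10 read 854.3, 943.2 and 838.2 at steady state and was at the floor at 60 min. SDH1, the flavoprotein of succinate dehydrogenase, fell from 793.2, 939.9 and 923 to 14.7 and 12.3. COX1, a cytochrome oxidase subunit encoded in mitochondrial DNA, read 1174.8, 759.1 and 1349.4 and then 926.9 and 1343.6, with overlapping arrays (log2 0.07, adjusted p 0.877). Mitochondrial ribosomal proteins moved less: 65 of 71 were lower, with a median of -1.08, and 34 with a common median. Peroxisomal and fatty acid oxidation genes were lower in 25 of 27 cases, and the 1 higher member was FAA4, an acyl-CoA synthetase that activates imported fatty acids, which rose from 317.1, 370.6 and 343.7 to 604.8 and 659.2.

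Activators of these programs fell, while 3 glucose-linked repressor and corepressor genes rose. HAP4, the activator subunit that turns on respiration, read 224.1, 258.2 and 293.3 at steady state and 12 and 12.4 at 60 min. ADR1 and CAT8, activators of ethanol and gluconeogenic genes, were at the floor on both 60 min arrays, from 138.8 to 185.1 and from 64.4 to 78.6. MTH1, a corepressor of the hexose carriers, and REG2, a subunit that directs a phosphatase to the Snf1 kinase, were also at the floor. MIG1, the glucose repressor, fell by 1.14, but its relatives MIG2 and MIG3 rose, MIG2 from 15.5 on 1 steady state array and the floor on the others to 53.8 and 66.7, and MIG3 from the floor to 71 and 66. STD1, the relative of MTH1, rose from 50.7, 44.3 and 49 to 262.8 and 309.9 (log2 2.57). Of the 22 glucose sensing and repression genes 13 were lower and 4 higher, the fourth being HXK2, against 45.6% and 23.2% of all genes. With a common median 9 were lower and 7 higher, and the list's median of -0.64 became 0.05.

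Storage and stress genes were low. All 20 glycogen and trehalose genes, all 34 general stress genes and all 11 vacuolar hydrolase genes were called lower, against 45.6% of all genes, with medians of -2.97, -3.50 and -3.27. With a common median 20, 32 and 9 of them were lower and 0 higher. The branching enzyme GLC3 and the trehalose synthase subunit TSL1 were at the floor on both 60 min arrays, from 364.4 to 399.5 and from 282 to 405. HSP12, a membrane-protecting stress protein, fell from 2473.6, 3968.3 and 2986.6 to 63 and 58.8 (50.7-fold), and HSP26, a small heat shock protein, from 1690.3, 2421.6 and 1712.5 to 27.6 and 27.3. SOD2, the mitochondrial superoxide dismutase, was at the floor on both 60 min arrays after 668.9, 732.4 and 673.7. The oxidant-removing enzymes were lower in 20 of 25 cases and autophagy genes in 15 of 18, with ATG8, which builds the autophagosome, falling by 3.93. With a common median 17 of the 25 were lower and 4 higher, and of 15 autophagy genes then tested 10 were lower and 1 higher.

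**Figure D2:**
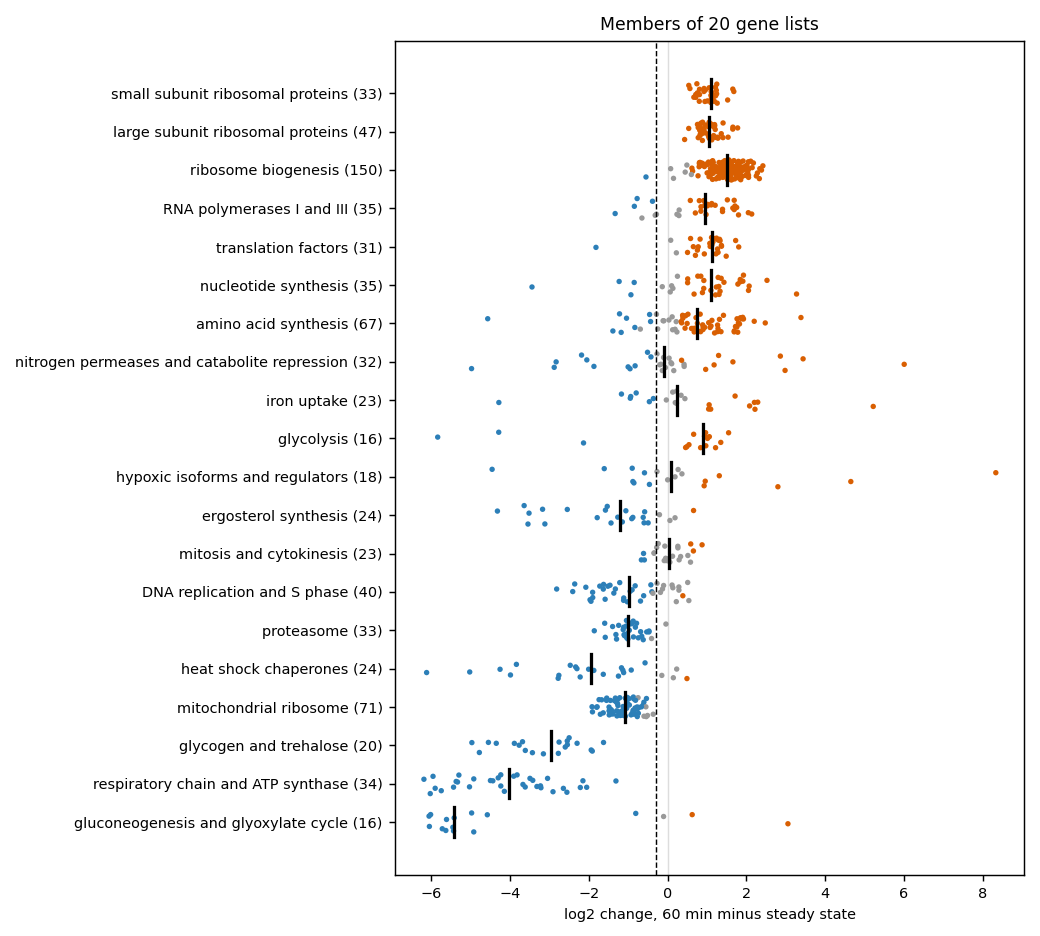
Log2 change at 60 min against steady state of every tested member (points) of 20 gene lists, with the list median as a vertical bar, the number tested in brackets, and the median of all genes (-0.29) as a dashed line. Points are orange where called higher, blue where called lower and grey otherwise; cytosolic ribosome lists lie to the right of 0 and respiratory, storage and stress lists to the left.

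Ribosome production rose broadly. All 47 large subunit and all 33 small subunit protein genes that have a probe set of their own were higher, against a background of 23.2%, and their medians were 1.05 and 1.10 on the log2 scale. RPL3 rose from 1321.5, 1283.9 and 1149.8 to 3671.7 and 2994 (2.65-fold), and RPS3 from 3234.7, 4052.1 and 3187.6 to 5882.2 and 5504.7 (1.64-fold). With quantile normalization 35 large and 26 small subunit genes were higher and RPS3 differed by 0.05 (log2, adjusted p 0.642). These counts leave out the many ribosomal genes whose twin shares the probe set.

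Ribosome biogenesis factors rose more. Of 150 tested, 144 were higher and 1 lower, with a list median of 1.51. The lower one, the cytoplasmic 60S factor REH1, changed by -0.55, which became 0.14 with a common median and had an adjusted p of 0.105 without 60 min replicate 1. HAS1, a helicase of both subunits, read 91.5, 83.8 and 90.3 at steady state and 468.3 and 478.3 at 60 min, a log2 rise of 2.42. NOP56 and UTP6, parts of the snoRNP and of the small subunit processome, rose by 2.38 and 2.33. RNA polymerase I and III genes were higher in 25 of 35 cases, led by the polymerase I subunits RPA34 (2.14) and RPA12 (2.05). The 4 lower ones, TFC1, TFC3, TFC4 and TFC8, all encode subunits of the assembly factor TFIIIC. TFC4 fell by 1.33 under the deposited scaling and passed under the other scalings too, whereas TFC3, TFC8 and TFC1 did not pass with a common median or quantile normalization, and TFC1 turned to 0.31 and 0.12. TFC1 was also lost without 60 min replicate 1 (adjusted p 0.321) and without steady state replicate 1 (0.0547) or 2 (0.0848).

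Around the ribosome, 28 of 31 translation factor genes and 18 of 19 tRNA synthetase genes were higher, with medians of 1.13 and 1.01. The 1 translation factor that fell was HYP2, for which ANB1 had come up. Nucleotide synthesis was higher in 26 of 35 genes and lower in 4, where the largest log2 change was -3.45. IMD4, of guanine nucleotide synthesis, rose from 62.4, 35.6 and 48.1 to 457.1 and 461.4, a log2 rise of 3.27, and ADE4, the first step of purine synthesis, by 2.52. The regulators of ribosomal genes were uneven. IFH1, the coactivator of ribosomal protein genes, rose by 0.64, TOD6, a repressor of ribosome biogenesis genes, by 1.90, and CRF1, a corepressor of ribosomal protein genes, fell by 2.68 to 15.1 and 15.

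Amino acid synthesis was higher in 48 of 67 genes and lower in 8, with a median of 0.76. SER2, the last step of serine synthesis, read 73.3, 49.3 and 64.5 at steady state and 704.2 and 588.3 at 60 min, a log2 rise of 3.39. ASN1, an asparagine synthetase, rose by 2.48 and LYS2 by 2.20. The largest fall in the list was GDH3, a second glutamate dehydrogenase known from growth on ethanol, by 4.57 to 18.3 and 18.8. Sulfur assimilation was higher in 15 of 26 genes and lower in 4, among them the sulfate carrier SUL1, which fell by 2.42 from 1317.6, 1606.2 and 1243.7 to 228.9 and 291.

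Several amino acid permeases rose, and several genes for the use of poor nitrogen sources fell. After DIP5, the largest rises were AGP1, a permease of wide range, from 71, 65.9 and 78.8 to 650.5 and 932 (log2 3.44), BAP3, a permease of branched-chain amino acids, from the floor to 93.1 and 96.7 (at least 2.98), and GNP1, the glutamine permease, to 267.9 and 507.1 (2.86). PUT4, the proline permease, fell from 1195.1, 1062.4 and 1289 to 38 and 36.6, a log2 fall of 4.98. The proline and GABA enzymes PUT2 and UGA1 fell by 2.88 and 2.83, and DAL3 of allantoin breakdown by 2.19. Other members moved against these or did not pass: the basic amino acid permease ALP1 fell from 28.7, 20 and 24.3 to the floor on both arrays, BAP2 differed by -0.14, and the allantoin genes DAL1 and DAL7 by -0.17 and -0.10. With 9 of 32 members higher and 11 lower, against 23.2% and 45.6% of all genes, the list has no one direction. Its median of -0.08 turned positive under each scaling.

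Several metal carriers rose, and other members of the iron and zinc lists fell. In the iron list, 9 of 23 genes were higher and 7 lower, against 23.2% and 45.6% of all genes, and with a common median 16 were higher and 2 lower. The largest fall among the iron genes was that of HMX1, by 4.29 on the log2 scale. ENB1, a siderophore carrier, rose from 191.9, 338.1 and 236.3 to 1282.3 and 1021.4 (log2 2.20), and TIS11, which destabilizes mRNAs of iron-using proteins, from 13.3, 22.1 and the floor to 77 and 65.2. FIT2, a wall protein that retains siderophore iron, and FET3, the ferroxidase of high-affinity uptake, rose by 2.29 and 2.08 with a wide spread between arrays, FIT2 at 438.4 and 218.7 and FET3 at 1530.1 and 735.3. Of 12 zinc genes 7 were higher and 3 lower, the lowest log2 change being -2.73. The zinc carriers ZRT1 and ZRT2 rose by 3.01 and 2.17, ZRT1 from 141.8, 101.5 and 111.8 to 942.2 and 947.8. The phosphate carrier PHO84 read the floor at steady state and 12.9 and 19.7 at 60 min, and its adjusted p of 0.0712 missed the threshold.

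The G1 cyclins CLN1 and CLN2 and many DNA replication genes were low at 60 min. The G1 cyclin CLN1 read 178.4, 184 and 188.6 at steady state and 22.1 and 20.9 at 60 min (8.54-fold lower), and CLN2 fell 3.64-fold to 29 and 32.6. CLN3, the upstream cyclin, gave a log2 difference of 0.07 with an adjusted p of 0.776. The G1 cyclin and Start list had 11 of 18 genes lower and 1 higher, the Cdk inhibitor FAR1, against a background of 45.6% lower, but with a common median 8 were lower and 5 higher and the median of -0.53 became 0.05. DNA replication genes were lower in 27 of 40 cases and higher in 1, with a median of -0.99 (20 lower and 11 higher with a common median), led by RFA3, a subunit of the single-strand binding protein, which fell by 2.82, and the sliding clamp POL30, which fell by 2.41. RNR1, the large subunit of ribonucleotide reductase, fell 3.01-fold from 487.9, 602.8 and 475.4 to 195.2 and 152.6.

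In the mitotic list 3 of 23 genes were lower and 3 higher, INN1 and the mitotic cyclins CLB1 and CLB2. By limma 18 were higher and 0 lower with a common median, and 14 and 0 with quantile normalization. CLB1 read 58, 55.7 and 59.2 at steady state and 90.3 and 123.6 at 60 min, and CLB2 22.9, 27.9 and 24.9 against 33.4 and 42.7. Without 60 min replicate 2 their adjusted p-values were 0.0504 and 0.0585. Genes of daughter cell separation and the M/G1 interval were lower in 12 of 16 cases, with ASH1, a repressor made in daughters, falling by 2.65 from 272.6, 355.7 and 343.4 to 48.5 and 53.8. Histone H1, HHO1, fell by 3.12. In cultures measured as a whole, a smaller share of cells in a phase and less RNA per cell cannot be told apart.

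Proteasome genes were lower in 31 of 33 cases with a median log2 change of -1.01, and in 11 with a common median, where the median was -0.32. PRE3, a catalytic core subunit, read 454.5, 492.2 and 509.6 at steady state and 118.6 and 149.6 at 60 min, a log2 fall of 1.86, and RPN12 of the lid fell by 1.60. RPN4, the activator of these genes, fell by 0.79 to 195.4 and 203.3, but differed by -0.10 with a common median (adjusted p 0.583). Chaperones of the heat shock list were lower in 20 of 24 cases, and the 1 higher member was YDJ1, a cytosolic Hsp40, which rose by 0.49 but by 0.04 with quantile normalization (adjusted p 0.768).

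The mating type in the labels was checked against a-cell and alpha-cell genes. The a-pheromone gene MFA2 read 1294.2, 1555.7 and 1459.5 at steady state and 3128.4 and 3834.4 at 60 min, and STE2, the receptor of a cells, 224.9, 224.8 and 209 and then 671.4 and 739.3. In all, 5 of 7 a-specific genes were higher and ASG7 was lower. The alpha-pheromone gene MF(ALPHA)1 stayed low, at 56.4 to 71.9 at steady state and 21.6 and 22.9 at 60 min. STE3, the receptor of alpha cells, read 20.5 and 26.6 at 60 min. The 3 alpha-cell genes tested had a median log2 change of -0.48, which became 0.21 with a common median and 0.25 with quantile normalization.

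**Figure D3:**
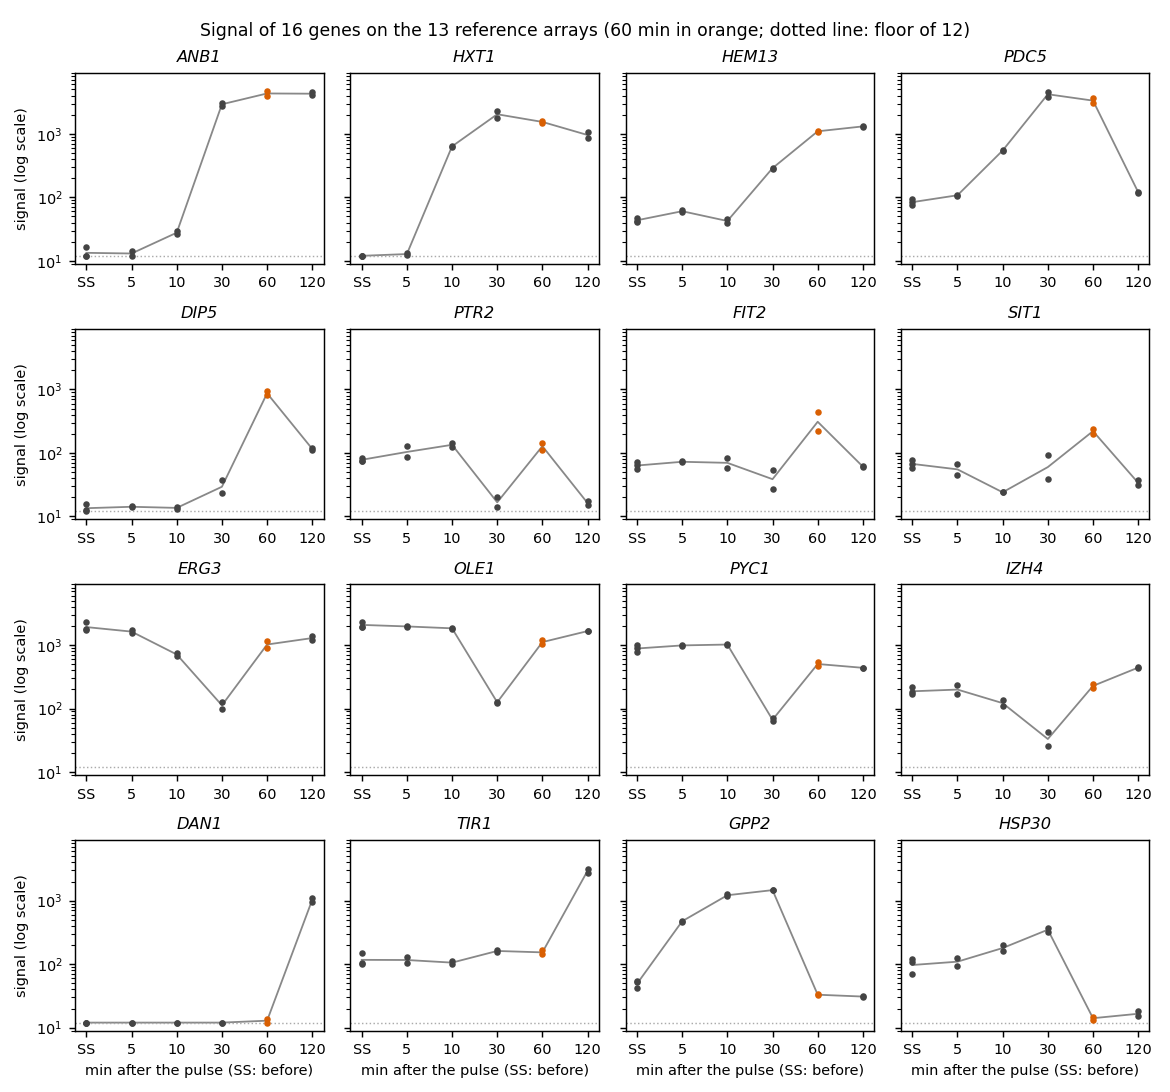
Signal of 16 named genes on every reference array (points, logarithmic y axis, signals under 12 drawn at 12) at steady state and 5, 10, 30, 60 and 120 min after the pulse (x axis, evenly spaced groups), with a line through the group means of log2 signals. The top row holds genes that had risen by 30 min, the second row genes with a peak at 60 min, the third row genes that had recovered from a low at 30 min, and the bottom row DAN1 and TIR1, high at 120 min, beside GPP2 and HSP30, high at 30 min.

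Set against the arrays of 30 min, 60 min showed recovery of lipid and protein turnover genes, higher signals of some permease and iron genes, and lower signals of genes that had peaked at 30 min. Of 5256 genes 1901 differed between these times (36.2%), 1289 of them higher at 60 min (24.5%) and 612 lower (11.6%), with an all-gene median of 0.12. With a common median the split turned to 698 higher and 1067 lower, and with quantile normalization to 794 and 718. The 60 min arrays also enter the comparison with steady state, so the values are given side by side and no agreement between the comparisons is drawn.

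The largest rise after 30 min was that of DIP5, from 23.1 and 37.3 to 808.2 and 934.1 (log2 4.89, adjusted p 1e-08). Other carriers for nitrogen compounds came up in the same interval: PTR2, for small peptides, from 13.9 and 20 to 145.8 and 111.9, OPT2, for oligopeptides, from the floor to 78.8 and 86.8, and BAP3, by 2.64. GAP1, the general amino acid permease, rose by 1.75 from a 30 min mean of 189.2 to 602.5 and 646.1. Not every permease took part, as BAP2, HIP1 and CAN1 fell by 1.82, 0.84 and 0.85 from 30 to 60 min. CAN1 did not pass without replicate 1 of 30 min (adjusted p 0.0522) or of 60 min (0.0588). In the whole nitrogen list 11 of 32 members were higher than at 30 min and 6 lower, and with a common median 6 and 9.

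Part of the iron list was higher than at 30 min. FIT2 read 54.8 and 27.2 at 30 min and 438.4 and 218.7 at 60 min (8.02-fold), and SIT1, a siderophore carrier, 93.1 and 38.5 and then 241.6 and 201 (log2 1.88). FTR1, the permease partner of FET3, rose by 1.12, whereas ARN1, another siderophore carrier, fell by 0.93. The call of ARN1 was lost without replicate 1 of 30 min (adjusted p 0.0676) or of 60 min (0.0552), and the rise of SIT1 was 2.52 without 30 min replicate 1 and 1.24 without 30 min replicate 2. Of the 23 iron genes 10 were higher than at 30 min and 5 lower, and with a common median 5 and 5. FET4 had reached 365.3 and 345.8 by 30 min and did not pass this test (log2 0.33, adjusted p 0.153).

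Sterol and fatty acid genes rose from a low at 30 min. ERG3, a sterol desaturase, read 1722.8, 2291.4 and 1782.2 at steady state, 99 and 127.6 at 30 min, and 1155.6 and 897.4 at 60 min, a log2 rise of 3.18 from 30 min. OLE1, the only fatty acid desaturase of yeast, read 124.4 and 126.6 at 30 min and 1028.3 and 1201.7 at 60 min (3.15). ERG11, the lanosterol demethylase, rose from 291.3 and 318.2 to 607.7 and 700.9 (1.10). In the ergosterol list 19 of 24 genes were higher than at 30 min, against a background of 24.5%, and 1 was lower, ERG1, the squalene epoxidase, by 0.55. IZH4, a membrane protein tied to zinc and sterol metabolism, recovered from 25.5 and 43 to 212.3 and 243, within the range of its steady state arrays on the log2 scale (difference 0.28, adjusted p 0.263).

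PYC1, the pyruvate carboxylase that refills the citrate pool, recovered from 70.7 and 62.7 at 30 min to 531.5 and 475.5, against 778.1, 984.6 and 894.1 at steady state. The acetyl-CoA synthetase ACS2, the form used on glucose, rose by 1.41. Proteasome genes followed the same course: 26 of 33 were higher than at 30 min and 0 lower by limma, with 29 higher and 0 lower at an unadjusted p under 0.05, and RPN12 went from 36.5 and 39.8 to 85.5 and 85.4.

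The 8 largest falls between 30 and 60 min were of genes that had been above their steady state signals at 30 min, except YGP1. YOR338W, of unknown function, read 758.9 and 805.9 at 30 min and 12 and 13 at 60 min, at least 62.6-fold lower. GPP2, the stress form of glycerol phosphatase, read 465.1 and 482.2 at 5 min, 1480 and 1446.6 at 30 min, and 33.7 and 32.3 at 60 min (log2 -5.47). HSP30, a membrane protein of the stress response, and its relative YRO2 fell by 4.63 and 5.10, to 13.3 and 14.9 and to 22.9 and 29.2. PRM7, a gene known from pheromone response, fell by 4.88 to 29.6 and 40.7, back in the range of its steady state arrays. NCA3, YMR244W and YGP1, a gene of the cell wall, fell by 4.51, 3.53 and 3.50.

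Chaperone genes were lower than at 30 min. In the heat shock list 18 of 24 were lower than at 30 min, against a background of 11.6%: HSP82 read a mean of 412.45 at 30 min and 41.1 and 50.2 at 60 min, and SSA2 and SSE1, which did not pass the test against steady state, fell by 1.21 and 1.20 from 30 min. Of the general stress list 14 of 34 genes were lower than at 30 min. Of the glycogen and trehalose list 5 of 20 were higher and 1 lower, against 24.5% and 11.6% of all genes. With a common median or quantile normalization 3 of these 20 were higher and 2 lower. Ribosome biogenesis genes had begun to come down, with 91 of 150 lower than at 30 min and 1 higher, and a median of -0.57. NSR1, a nucleolar protein, read 362.9, 382.9 and 343.4 at steady state, 2357.9 and 2277.8 at 30 min, and 830.7 and 1104.9 at 60 min. Few ribosomal protein genes moved: 1 of 47 large subunit genes and 0 of 33 small subunit genes passed the test between 30 and 60 min in limma, and 0 of the 33 had an unadjusted p under 0.05. In each list 4 genes were lower with a common median. Sulfur assimilation, too, was lower than at 30 min in 20 of 26 genes.

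From 60 to 120 min 4 of 7 anaerobic wall protein genes rose, many genes of G1 and S phase rose, and some permease and iron genes came down. Between these times 1658 genes differed (31.5%), 1087 of them higher at 120 min (20.7%) and 571 lower (10.9%), with an all-gene median of 0.03. With a common median 726 were higher and 1023 lower, and with quantile normalization 823 and 734.

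DAN1 went from 13.8 and the floor at 60 min to 1118.1 and 952.1 at 120 min, at least 80.2-fold higher, and TIR1 from 142 and 165.1 to 3160 and 2747.6 (log2 4.27). TIR4 rose by 3.17 and TIR3 by 1.78, and AUS1 by 0.77. GPD1 came back from 27.3 and 21 to 259.8 and 234.2 (3.36), and STF2 and PIL1, a core protein of the eisosome, rose by 3.43 and 3.12 while remaining under their steady state signals. HSP12 read 384.3 and 483.3 at 120 min, a log2 rise of 2.82.

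PDC5 was the largest fall, from 3637.4 and 3055.7 to 123.4 and 118.1 (log2 -4.79, adjusted p 2.85e-10), near its steady state signals of 75.4 to 93.9. PTR2, DIP5 and GDH2, the glutamate dehydrogenase that releases ammonium, fell by 2.97, 2.91 and 2.94. Of the iron list 13 of 23 genes were lower at 120 min and 0 higher by limma (16 and 0 at an unadjusted p under 0.05), with SIT1 and FET3 falling by 2.70 and 2.39. Of the nitrogen list 11 of 32 were lower, among them GNP1, which fell by 2.19, and GAP1, which fell by 2.26.

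CLN1 rose from 22.1 and 20.9 to 62 and 62.9, CLN2 from 29 and 32.6 to 87.6 and 86.2, and RNR1 from 195.2 and 152.6 to 749.8 and 692.1 (log2 2.06). CLN1 and CLN2 stayed below their steady state signals, and of the G1 cyclin and Start list 9 of 18 genes were higher than at 60 min and 1 lower. DNA replication genes were higher at 120 min in 25 of 40 cases and genes of daughter cell separation in 14 of 16, against a background of 20.7%, and 0 of either list were lower by limma, at an adjusted or an unadjusted p under 0.05. The low of the DNA replication list was at 30 min, with array medians of -1.34 and -1.40 against steady state, and -0.96 and -0.98 at 60 min. From 30 to 60 min 13 of the 40 had risen and 1 had fallen, against 24.5% and 11.6% of all genes. Mitotic genes were lower in 9 of 23 cases, among them CLB1 and CLB2, which fell by 1.56 and 1.13. CLB1 and CLB2 were thus above, and CLN1 and CLN2 below, both the steady state and the 120 min arrays on each 60 min array. Ribosome biogenesis continued down in 136 of 150 genes, with a median of -0.96, and RPA190, the largest subunit of RNA polymerase I, fell from 1180.5 and 1367.1 to 672.8 and 735.8.

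**Figure D4:**
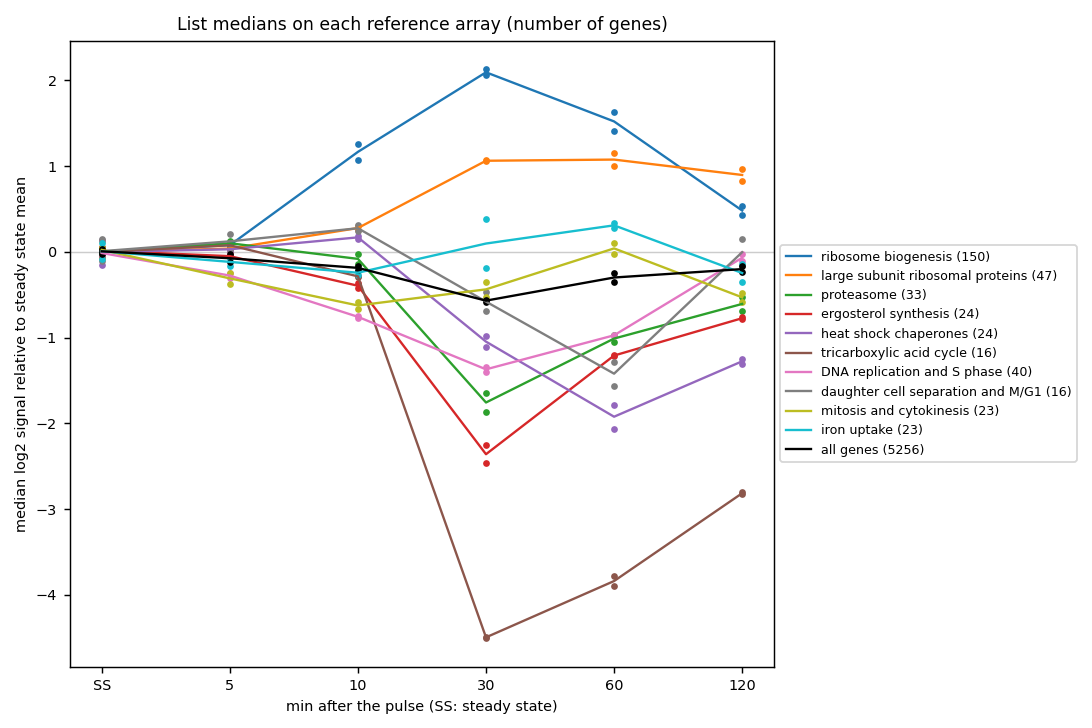
Median log2 signal of 10 gene lists on each reference array relative to the mean of the steady state arrays (y axis), at steady state and 5, 10, 30, 60 and 120 min (x axis, evenly spaced groups); points are arrays and lines join group means, with all genes in black. Ribosome biogenesis genes were highest at 30 min, and ergosterol, proteasome and DNA replication genes were lowest at 30 min. Cell separation genes were lowest at 60 min, and both these and DNA replication genes were higher at 120 min than at 60 min.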

How the data were processed

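RNA of 26 yeast samples was hybridised to Affymetrix arrays, of which 13 were fitted. The deposited values are linear intensity signals per probe set, made by the authors in GCOS per the submitters' processing notes, with version and scaling not given in the sources used here. Every array had a 2% trimmed mean of 150.1 to 150.2.

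Of 9335 probe sets, 60 were array controls, 6504 carried 1 gene name, 328 several and 2443 none. Signals under 12 were set to 12 and taken to log2. Each gene was read by the probe set of highest mean, and genes above 12 on at least 2 of 13 arrays were tested, which left out 400 of 5656, so lists hold tested members only. For a gene at the floor on an array, folds are lower bounds against 12. Limma 3.58.1 in R 4.3.3 was fitted over 6 groups with an intensity trend. Its two-sided tests, with Benjamini-Hochberg adjustment over 5256 genes, had 7 residual and 5.46 prior degrees of freedom, and the fit was tested on simulated data. Figures used matplotlib 3.10.9 in Python 3.11.15.

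The 49 gene lists and the genes studied were chosen with earlier results of these data known. Named genes were drawn from the 12 largest rises and falls without array overlap, 8 and 6 for the later comparisons, up to 4 called members a list, members against its majority, fixed markers and their partners. Without the partners this took in 301 tested genes. Some of them, members against a list's majority included, are not named. Of 210 genes named, 31 were outside this list and were chosen after their values were seen. Alternatives covered the samples fitted, scaling, floor, filter, probe sets, variance model, thresholds, replicate block and each array left out.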

Additional observations from a re-analysis of the deposited data

How the results depend on the processing

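Over the alternatives tried, 237 gene results gave 3755 values, of which 3613 kept their direction and their side of the threshold, 114 no longer passed, 21 newly passed and 7 changed sign after passing. The sign changes were DAN4 (0.074), REH1 (0.14), STE3 (0.21) and TFC1 (0.31) with a common median, and STE3 (0.25), TFC1 (0.12) and CCW12 (-0.0499) with quantile normalization. A fit of all 26 arrays called 669 genes between 30 and 60 min and 426 between 60 and 120 min, and no longer passed 23 of the gene results; the cause was not tested. Asking for at least 2-fold left 2120 genes against steady state. Leaving out 1 array gave 3239 to 3642 genes against steady state, 1298 to 1622 against 30 min and 1117 to 1199 for 120 min. The other settings kept each count of genes within 1.5 times, while both scalings moved the share of rises.

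The replicate numbers were not taken to pair the samples, and the labels do not give a pairing. Of 30 same-number correlations of deviations from group means, 15 were over 0.1 and the range was -0.252 to 0.274. With 2 arrays at each pulse time, both numbers give the same value by construction, so the 30 are not all separate. Between pulse times every value was positive, 0.0755 to 0.274, and negative values occurred only with steady state. These values do not settle whether pulse times shared cultures. With the replicate number as a block, 3538 genes differed from steady state, 1979 from 30 min and 1685 between 60 and 120 min, and CCW12, DAN4, PAU13 and TIR4 did not pass.

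The 2 arrays at 60 min limit the precision. Signals at or near 12 have no order, and genes with shared or cross-binding probe sets cannot be told apart.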

Other observations

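Genes of Ras and protein kinase A signalling, the cyclic AMP route by which yeast senses glucose, differed in direction at 60 min: 14 of 21 tested were lower than at steady state, against 45.6% of all genes, and 3 higher, with a median log2 change of -0.83. Under a common median 8 of the 21 were lower and 7 higher, with a median of -0.14. TPK2, a catalytic subunit of protein kinase A, read 298.2, 281.7 and 304.2 at steady state and 12 and 16.1 at 60 min, a log2 fall of 4.41. BCY1, the regulatory subunit, fell by 2.50 to 76.6 and 73.2, and YAK1, a growth-restraining kinase that protein kinase A opposes, by 3.25 to 17.9 and 20.6. The 3 higher genes were RAS1, the lesser of the yeast Ras proteins, from 57.7, 69.5 and 58 to 123.8 and 155.3, the catalytic subunit TPK3 (log2 0.99) and the cyclic AMP phosphodiesterase PDE2 (0.59). PDE2 had read 417.9 and 423.2 at 30 min.

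Cell wall synthesis genes had no one direction, with 6 of 30 higher and 13 lower, near the 23.2% and 45.6% of all genes. With a common median 18 were higher and 9 lower, and the list's median of -0.11 became 0.58. KNH1, of beta-glucan synthesis, read 470, 484.5 and 360.2 at steady state and 16.5 and 14.6 at 60 min, a log2 fall of 4.81. The chitin transglycosylases CRH1 and UTR2 moved in opposite directions, by -2.18 and 1.46. CRH1 was back at 329.6 and 334.9 at 120 min, against 324.1, 368.3 and 326.5 at steady state. In the phosphate list, 3 of 17 genes were higher and 8 lower, near the 23.2% and 45.6% of all genes. Under a common median 9 were higher and 2 lower, with quantile normalization 8 and 4, and the list's median of -0.18 became 0.51 and 0.30. The high-affinity carrier PHO89 fell by 2.52 to 22 and 26.7, and the low-affinity carrier PHO90 rose by 1.19 from 240.8, 270.7 and 248 to 522.8 and 635.1.

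Of 1098 tested probe sets without a single gene name, 410 were higher and 209 lower at 60 min in a limma fit of all 6876 probe sets. In that fit 1738 of the 6876 were higher and 2745 lower, so falls outnumbered rises in the whole but not among the unnamed probe sets. The probe sets without a single gene name were not examined further.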
